A study of Macaca mulatta with 24 samples.

Results

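The genes described here make, carry and sense vitamin A and its active form, retinoic acid, in the ileum of rhesus macaques after total-body irradiation (TBI). The 9 symbols asked for were the retinaldehyde dehydrogenases ALDH1A1, ALDH1A2 and ALDH1A3, the retinol carriers RBP2 and RBP4, the retinoic acid carriers CRABP1 and CRABP2, the retinol transporter STRA6 and the receptor RARB. A probe belonged to the set when the deposited normalized ileum table gave it one of these symbols, which left 9 probes of 7 symbols, among 16094 symbols and 43603 probes on the array. ALDH1A1 and ALDH1A3 had 2 probes each, the other symbols 1, and RBP4 and CRABP2 had none under their own symbol. ALDH1A2 was chosen with its change on these arrays known, so its differences from the controls and between days are given as a description with no p-value, and nothing is read from its place in a count of calls.

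Each of the 24 arrays measured total RNA from the whole wall of a short segment of ileum from 1 young-adult male animal, with no pooling and no technical repeat. The irradiated animals had received a single uniform dose of cobalt-60 gamma rays, 6.7 Gy or 7.4 Gy, to the whole body. At each dose 4 animals were killed on day 4, 4 on day 7 and 2 on day 12. The 4 controls, sham-irradiated and labelled as dose 0 and day 4, served for both doses and every day, so the 6 comparisons with them share the same 4 animals, and day 7 and day 12 have no controls of their own day. Nothing but irradiation is named as a treatment of any group.

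Values are log2 signal minus the array's own 75th percentile, so 0 is the 75th percentile of that array and a difference of 1 is a 2-fold difference. One probe's level cannot be set against another's. Between 72.7% and 88.1% of probes were well above background per array, and arrays of the same group correlated at 0.969 to 0.987. The arrays lay on 6 slides read on 2 scan days. All 4 controls lay in the first position of slides 1 to 4, read on the first scan day, and no control lay on the slides of the second scan day. Position on the slide and irradiation cannot be told apart for days 7 and 12 against the controls. On day 4 all 7.4-Gy arrays lay in the second position. Only the 6.7-Gy day 4 group held arrays in both the first and the second position. Those in the first lay on slides of the second scan day.

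Dietary vitamin A is taken up by enterocytes, bound there by the cellular retinol-binding protein RBP2 and stored or shipped as retinyl esters. Retinol is oxidised reversibly to retinaldehyde by retinol and alcohol dehydrogenases, and retinaldehyde is oxidised irreversibly to retinoic acid by the ALDH1A enzymes. Retinoic acid is bound in the cell by CRABP proteins or FABP5, acts through nuclear receptors, chiefly RAR paired with RXR, and is degraded by CYP26 enzymes. In the small intestine, retinoic acid made by dendritic, stromal and epithelial cells is known for inducing the homing receptors CCR9 and integrin alpha 4 beta 7 on lymphocytes.

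ALDH1A2, the retinaldehyde dehydrogenase also called RALDH2, stood highest on day 4 after either dose. The 4 controls measured -1.52, -0.72, -1.08 and -0.78, a mean of -1.02 ± 0.37 (SD, n = 4). On day 4 the animals measured 0.41, 0.91, 0.67 and 0.66 at 6.7 Gy (0.66 ± 0.21, SD, n = 4). After 7.4-Gy TBI they measured 0.47, 0.80, 0.88 and 0.47 on the same day (0.66 ± 0.22, SD, n = 4). All 8 day 4 animals lay above all controls and above all animals of days 7 and 12. The day 4 means were 1.68 above the controls on the log2 scale (SE 0.20) at each dose, a 3.21-fold difference.

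On later days ALDH1A2 lay between the controls and the day 4 animals. On day 7 it measured -0.50, -0.90, -0.56 and -0.23 at 6.7 Gy. After 7.4-Gy TBI it measured -0.47, -0.30, -0.43 and 0.28 on day 7. On day 12 it measured -0.33 and -0.35 at 6.7 Gy and -0.57 and -0.09 at 7.4 Gy. The day 7 animals of the 6.7-Gy dose overlapped the controls, with a mean 1.39-fold higher, while those of the other later groups lay above every control. Their means were 1.73-fold (7.4 Gy, day 7), 1.61-fold (6.7 Gy, day 12) and 1.62-fold (7.4 Gy, day 12) above the control mean. Compared with day 4 of the same dose, ALDH1A2 was lower by log2 differences of -1.21 and -0.89 on day 7 (6.7 Gy and 7.4 Gy) and of -1 and -0.99 on day 12. In the order of the 7 group means, the 2 day 4 groups came first and overlapped each other. The 7.4-Gy day 7, 7.4-Gy day 12, 6.7-Gy day 12 and 6.7-Gy day 7 groups and the controls followed, each overlapping its neighbour in that order, and only the step from day 4 to the rest was free of overlap.

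**Figure D1:**
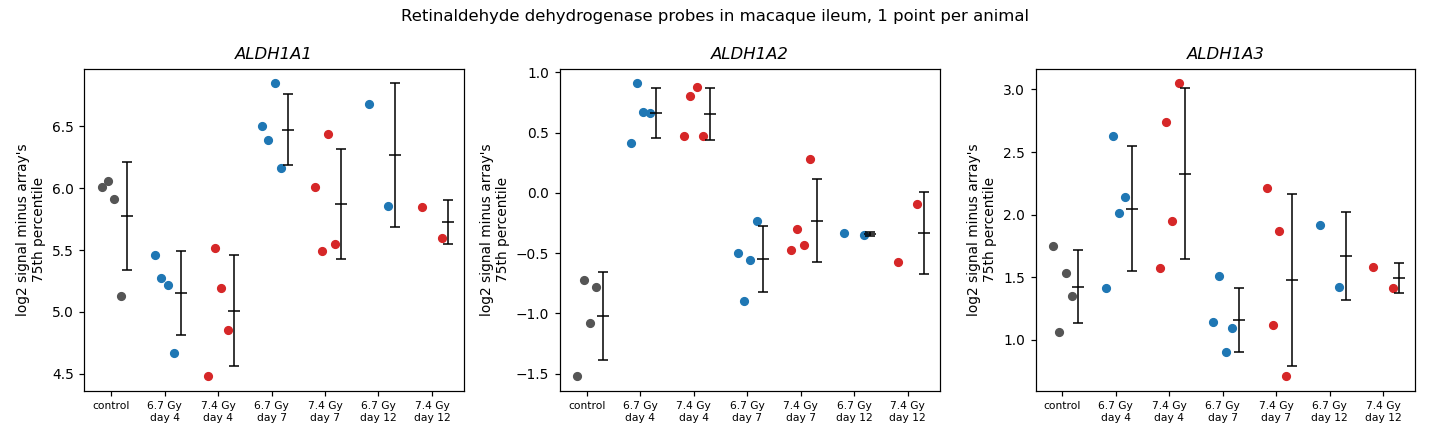
Level of the brightest probe of ALDH1A1, ALDH1A2 and ALDH1A3 in each animal (vertical axis: log2 signal minus the array's 75th percentile, a different range in each panel) for the controls (grey) and for 6.7-Gy (blue) and 7.4-Gy (red) TBI by day; the bars beside the points are mean ± SD. The ALDH1A2 points of day 4 lie between 0.41 and 0.91 and are clear of all others, while ALDH1A1 is lowest on day 4 and ALDH1A3 overlaps between groups.

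No difference between doses was detected for ALDH1A2. The 7.4-Gy mean minus the 6.7-Gy mean was 0.00 on day 4, with a 95% interval of -0.42 to 0.41 (limma, adjusted p = 1). It was 0.32 on day 7 (interval -0.10 to 0.73, adjusted p = 0.99) and 0.01 on day 12 (interval -0.58 to 0.60, adjusted p = 1). The intervals allow a difference of either sign on each day.

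The day 4 difference in ALDH1A2 was also present between arrays of the same slide. Against the control array of their own slide, 2 animals of the 6.7-Gy day 4 group were higher by 2.19 and 1.37 on the log2 scale, and 2 of the 7.4-Gy day 4 group by 1.55 and 1.58. The day 7 animals differed from their slide's control by 1.02, -0.19, 0.52 and 0.55 (6.7 Gy) and by 1.1 and 1 (7.4 Gy), and the day 12 animals of the 6.7-Gy dose by 0.75 and 0.43. No slide held a control and a 7.4-Gy day 12 array. With array position as a covariate, which could be estimated against the controls only on day 4, the differences were 1.68 at each dose. That estimate rested on the 6.7-Gy day 4 group alone, whose arrays in the first and second positions also differed in slide and scan day. The differences within a slide set later positions against controls in the first. Neither comparison separates position from irradiation.

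RNA came from the whole ileal wall, so fewer or more cells of a type and less or more RNA per cell cannot be told apart in these values. Several marker lists moved with ALDH1A2 on day 4. All 4 tested markers of lymphatic endothelium (LYVE1, PROX1, CCL21 and PDPN) were higher than in controls at both doses, and 2 of 4 (LYVE1 and CCL21) passed the call rule at 6.7 Gy and 1 of 4 (CCL21) at 7.4 Gy. The call rule throughout is a limma p adjusted over all tested probes under 0.05 with a difference of at least 2-fold. Of all 14195 genes tested, 1.13% at 6.7 Gy and 2.68% at 7.4 Gy were called in either direction on day 4, and these shares apply to each marker count of that day. CCL21, a chemokine of lymphatic vessels, rose by 1.12 (adjusted p = 0.0057) and 1.23 (adjusted p = 0.0016), and LYVE1, a hyaluronan receptor of lymphatic vessels, by 1.06 (adjusted p = 0.0022) at 6.7 Gy and by 0.94 (adjusted p = 0.0034, under 2-fold) at 7.4 Gy. The summed signal of the 4 markers, in log2, was 1.48 to 2.05 in controls, 2.67 to 3.33 and 2.68 to 3.17 on day 4 (6.7 Gy and 7.4 Gy), and 1.74 to 2.40 in the later groups. Neither PROX1 nor PDPN, at changes of 0.24 to 0.63, passed the test.

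Fibroblast markers were also higher on day 4. All 6 tested were above the control mean at both doses, and 0 of 6 passed the call rule at 6.7 Gy (1.13% of all genes) and 3 of 6 at 7.4 Gy (2.68%). The 3 were the matrix genes COL3A1 (1.01, adjusted p = 0.037), DCN (1.26, adjusted p = 0.0097) and LUM (1.09, adjusted p = 0.014). Their list's summed signal was 5.25 to 6.08 in controls, 5.91 to 6.60 on day 4 at 6.7 Gy and 6.32 to 7.18 at 7.4 Gy.

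Markers of mesothelium and dendritic cells, both known to express ALDH1A2, had no call higher on day 4. None of the 3 tested mesothelial markers (MSLN, UPK3B and WT1) passed the test on day 4, and their summed signal was 1.31 to 2.30 in controls, 1.39 to 2.10 after 6.7 Gy and 1.83 to 2.64 after 7.4 Gy. All 7 tested dendritic cell markers were lower than in controls on day 4 at both doses, and 2 of 7 passed the call rule at each (FLT3 and CD1C, each well above background on 12 of 24 arrays). The summed dendritic cell signal was -0.24 to 0.24 in controls, -0.78 to -0.15 after 6.7 Gy and -0.85 to -0.36 after 7.4 Gy on day 4. Of the other lists, on day 4, enteric neurons and glia had 0 and 2 of 5 called higher (6.7 Gy and 7.4 Gy), endothelium 0 and 1 of 4, and enteroendocrine cells 0 and 1 of 5. Not all members of these lists were higher. For neurons and glia 4 markers were higher and 1 lower at each dose, and for endothelium 2 and 2 at 6.7 Gy and 4 and 0 at 7.4 Gy. For enteroendocrine cells 3 were higher and 2 lower at 6.7 Gy, and 2 higher and 3 lower at 7.4 Gy (medians 0.38 and -0.26). The summed signal of the neuron and glia markers was 0.34 to 1.23 in controls, 0.83 to 2.56 at 6.7 Gy and 1.52 to 1.82 at 7.4 Gy on day 4. B cells had 2 and 1 of 4 called lower, and macrophages, smooth muscle, adipocytes and proliferating cells had no call. The summed smooth muscle signal was 6.65 to 8.97 in controls, with 1 control low, and 8.22 to 9.12 on day 4. The part of any of these cell types in the ALDH1A2 values was not tested.

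ALDH1A1, another retinaldehyde dehydrogenase and abundant in gut epithelium, had its lowest group means on day 4 and its highest on day 7 at 6.7 Gy. The controls measured 6.01, 6.06, 5.91 and 5.13 (5.78 ± 0.44, SD, n = 4). On day 4 the animals measured 5.46, 5.27, 5.22 and 4.67 at 6.7 Gy and 4.48, 5.52, 5.19 and 4.85 at 7.4 Gy. The day 4 animals spread from 4.48 to 5.52, below the other 3 controls, and the lowest control, at 5.13, lay among them. The day 4 differences from controls were -0.62 (SE 0.27, adjusted p = 0.18) and -0.77 (adjusted p = 0.09), neither past the threshold, and with array position as a covariate they were -0.41 and -0.35.

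On day 7 ALDH1A1 measured 6.50, 6.39, 6.85 and 6.16 at 6.7 Gy, above every control and every day 4 animal. After 7.4-Gy TBI it measured 6.01, 5.49, 6.44 and 5.55 on day 7, where 3 of the 4 animals lay within the control range and 1 above it. On day 12 the values were 6.68 and 5.86 (6.7 Gy) and 5.85 and 5.60 (7.4 Gy). Against controls the day 7 differences were 0.70 (adjusted p = 0.39) and 0.10 (adjusted p = 0.91), and those of day 12 were 0.49 (adjusted p = 0.69) and -0.05 (adjusted p = 0.99).

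Between days, ALDH1A1 rose at 6.7 Gy. It was 2.5-fold higher on day 7 than on day 4 (log2 1.32, SE 0.27, adjusted p = 0.027) and 2.16-fold higher on day 12 than on day 4 (log2 1.11, SE 0.33, adjusted p = 0.047), with no overlap between animals in either case. After 7.4-Gy TBI the same differences were 0.86 (adjusted p = 0.081) and 0.72 (adjusted p = 0.23). The second ALDH1A1 probe gave 1.22 (adjusted p = 0.03) and 1.1 (adjusted p = 0.043) at 6.7 Gy and 0.95 (adjusted p = 0.046, under 2-fold) and 1.04 (adjusted p = 0.073) at 7.4 Gy. It was also lower than in controls on day 4 at 7.4 Gy (-0.98, adjusted p = 0.03, under 2-fold). The day 7 call at 6.7 Gy was lost under 4 of 11 alternative settings and on leaving out day 4 replicate 2 or 4 or day 7 replicate 1, 2 or 3, with differences of 1.12 to 1.53. The day 12 call was lost under 6 of 11 settings and on leaving out day 4 replicate 2, 3 or 4 or either day 12 animal, with differences of 0.70 (without day 12 replicate 1, adjusted p = 0.38) to 1.52. The dose differences of ALDH1A1 were -0.15 on day 4 (adjusted p = 0.93), -0.60 on day 7 (interval -1.17 to -0.04, adjusted p = 0.99) and -0.54 on day 12 (adjusted p = 0.85).

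ALDH1A3, the remaining retinaldehyde dehydrogenase, did not pass the test in any of the 13 comparisons. The controls measured 1.75, 1.06, 1.53 and 1.35. On day 4 it measured 1.41, 2.63, 2.01 and 2.14 at 6.7 Gy and 1.57, 2.74, 1.95 and 3.05 at 7.4 Gy. The day 4 means were 0.62 (adjusted p = 0.26) and 0.90 (SE 0.33, adjusted p = 0.10) above the controls, with 3 of 4 animals of each group above every control. On days 7 and 12 the differences from controls lay between -0.26 and 0.24. The second ALDH1A3 probe gave 0.39 and 0.58 on day 4 and -0.38 to 0.19 later.

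**Figure D2:**
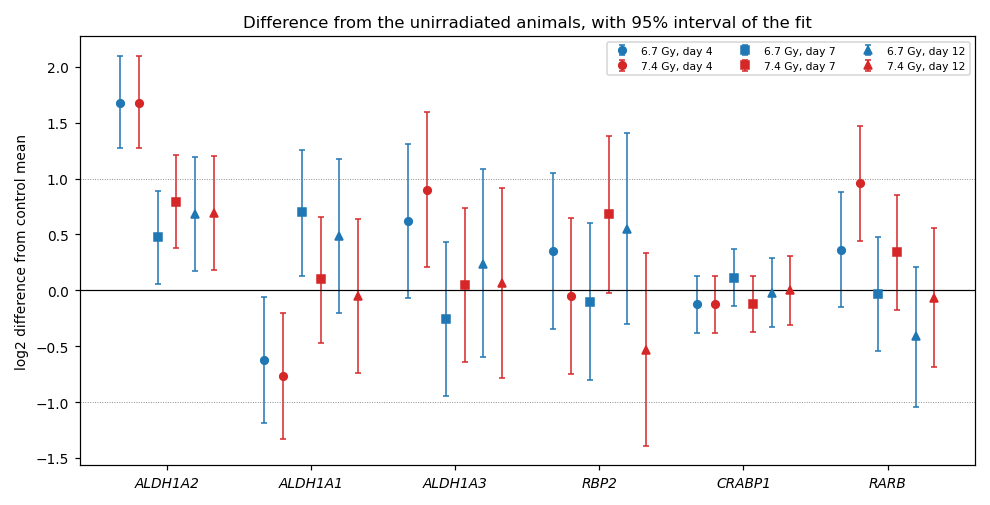
Difference of each irradiated group from the control mean (vertical axis: log2 difference, dotted lines at 2-fold) for the 6 genes tested, with the 95% interval of the fit across all 24 arrays; colours give the dose and shapes the day. The ALDH1A2 differences of day 4, both 1.68, are the only ones past the dotted lines, and all CRABP1 differences lie between -0.12 and 0.11.

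RBP2, the retinol carrier of absorptive enterocytes, varied widely among animals and did not pass the test in any comparison. The controls measured 4.28, 4.29, 3.73 and 2.66, a range wider than the difference between any group mean and theirs. The differences from controls ran from -0.53 (7.4 Gy, day 12) to 0.68 (7.4 Gy, day 7, adjusted p = 0.39). Single animals set their size, since the day 12 difference was -0.17 without day 12 replicate 2, -0.35 without control replicate 1 or 2, -0.90 without day 12 replicate 1 and -0.89 without control replicate 4, and that of day 7 was 0.32 without control replicate 4. On day 12 RBP2 measured 4.55 and 4.04 at 6.7 Gy and 3.57 and 2.84 at 7.4 Gy. Both 7.4-Gy animals lay below both 6.7-Gy animals, a difference of -1.09 (interval -2.08 to -0.10, unadjusted p = 0.033, adjusted p = 0.78) that was -0.72 without 7.4-Gy replicate 2. Markers of mature enterocytes gave no call in any of the 6 comparisons with controls (0 of 6 tested markers, against 0.0423% to 2.68% of all genes), and their summed signal was 6.61 to 8.07 in controls, 7.77 to 7.84 after 6.7 Gy and 6.87 to 7.40 after 7.4 Gy on day 12.

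STRA6, the cell-surface receptor that takes up retinol from circulating RBP4, was near the limit of detection. Its probe was well above background on 11 of 24 arrays and in no group on every array, so it was not tested. Group means ran from -7.07 to -6.20. RBP4, the carrier of retinol in blood, is not under its symbol in the deposited table, but 3 probes deposited as LOC701270 carry its RefSeq gene ID and are given here outside the set. Its brightest probe measured 0.48, 0.02, 0.31 and -0.61 in controls and -0.86 and -1.25 (6.7 Gy) and -0.94 and -1.65 (7.4 Gy) on day 12. By this probe all 4 day 12 animals lay below every control, but the differences of -1.11 and -1.34 did not pass the test (adjusted p = 0.62 and 0.58). The other 2 probes gave smaller day 12 differences, -0.67 and -0.51 for one and -0.88 and -0.79 for the other, and animals overlapped the controls in all of these but the -0.88 at 6.7 Gy. On day 4 at 6.7 Gy the same probe spread from -1.87 to 1.66.

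CRABP1, a cytosolic carrier of retinoic acid, measured 1.14, 1.17, 1.09 and 0.76 in controls and 0.62 to 1.32 in the irradiated animals. Its differences from controls lay between -0.12 and 0.11, each with an interval inside -0.38 to 0.37, and none passed the test (adjusted p of 0.55 to 1). One unnamed probe whose accession belongs to CRABP2, outside the set, gave differences of -0.22 to 0.03. FABP5, the fatty acid-binding protein that can carry retinoic acid to the receptor PPARD, was higher on day 4 at 7.4 Gy. It measured 1.51 to 2.01 in controls and 2.24 to 3.16 on day 4 at 7.4 Gy, where all animals lay above all controls (0.87, adjusted p = 0.014, under 2-fold). With array position as a covariate this was 0.32 (adjusted p = 0.69), and the adjusted p was also over 0.05 on slides 1 to 4 alone (0.66, adjusted p = 0.11), in a fit of the compared groups alone (0.067) and by the test of group means that the study's methods name (0.12). After 6.7-Gy TBI the difference was 0.70 (adjusted p = 0.06).

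RARB, a nuclear receptor for retinoic acid whose own gene is a classic retinoic acid target, was higher on day 4 after the higher dose. The controls measured -4.52, -4.52, -4.52 and -4.04. On day 4 it measured -3.57, -3.13, -4.02 and -3.06 at 7.4 Gy, all above every control, although the lowest was above the highest control by only 0.02. The difference was 0.96 (1.94-fold, SE 0.24, adjusted p = 0.026), just under the 2-fold limit. The probe was dim, at 42.9 to 72.4 intensity units in controls and 70.1 to 152 in these animals, and with normexp background correction, chosen after seeing the data, its highest difference from controls in any group was 0.50. The call rule was met without control replicate 4 (1.08, adjusted p = 0.022), without replicate 3 of this group (1.15, adjusted p = 0.017) and on slides 1 to 4 alone (1.05, adjusted p = 0.035). Over all alternatives the difference ran from 0.50 to 1.23. The 1.23 was past the 2-fold limit but did not meet the call rule.

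After 6.7-Gy TBI, RARB on day 4 measured -4.48, -3.32, -4.06 and -4.29, which overlapped the controls (0.36, adjusted p = 0.37). The difference between doses on day 4 was 0.59 (interval 0.08 to 1.1, adjusted p = 0.88). On day 7 the differences from controls were -0.03 and 0.34 (6.7 Gy and 7.4 Gy) and on day 12 -0.41 and -0.07, none past the threshold. After 7.4-Gy TBI, day 12 was lower than day 4 by a log2 difference of -1.02 without passing the test (adjusted p = 0.062).

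**Figure D3:**
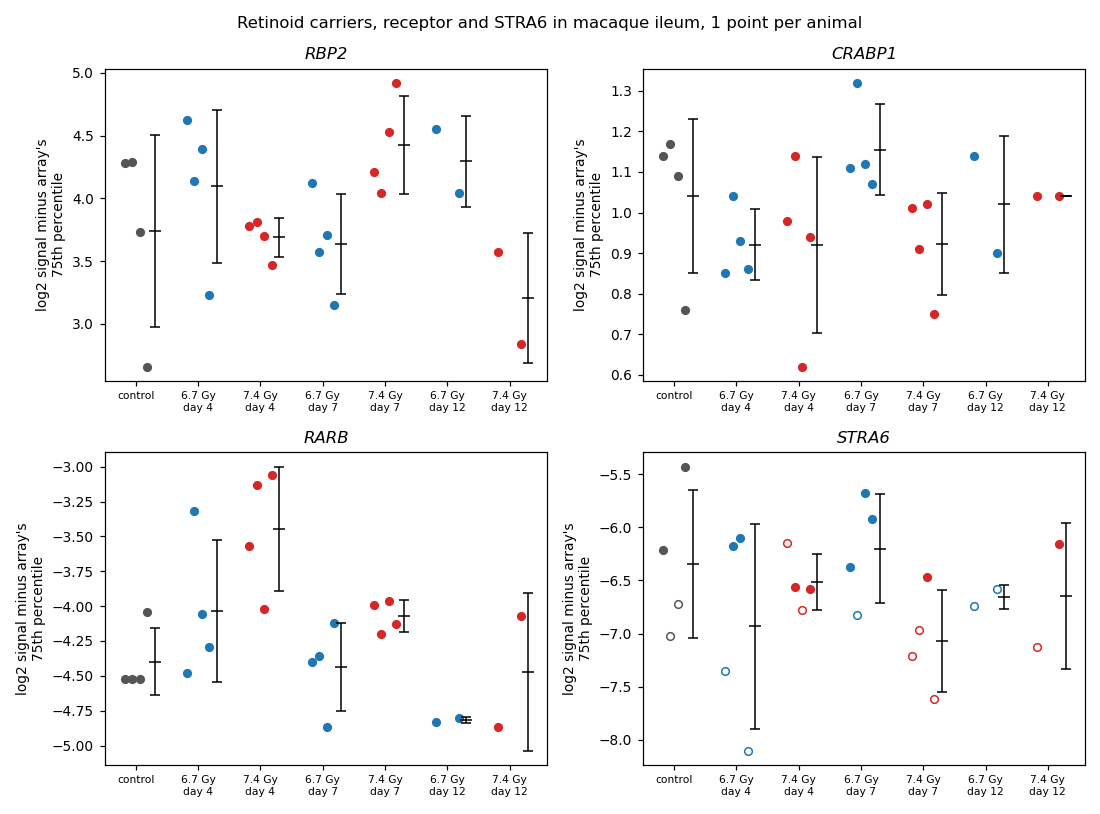
Level of the probes of RBP2, CRABP1, RARB and STRA6 in each animal (vertical axis: log2 signal minus the array's 75th percentile, a different range in each panel), by dose and day, with mean ± SD beside the points; open points were not well above background. RARB at 7.4 Gy on day 4 lies between -4.02 and -3.06, above the controls, and STRA6 is well above background on 11 of 24 arrays.

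Over the 6 genes tested, the counts of calls were small in every comparison. On day 4, 1 of 6 was called higher at each dose, ALDH1A2, against 0.595% and 1.6% of all tested probes called higher at 6.7 Gy and 7.4 Gy. That comparison chose ALDH1A2, so nothing is read from its count. Against the controls of the later groups, 0 of 6 was called at 6.7 Gy on day 7 (0.235% of all tested probes), 7.4 Gy on day 7 (0.568%), 6.7 Gy on day 12 (0.108%) and 7.4 Gy on day 12 (0.0443%). The limma count at an unadjusted p under 0.05 and 2-fold was also 0 of 6 in each of these 4 comparisons, as was that of the methods' test, the test of group means that the study's methods name, run here on the same values with equal variances, which was a choice made here. Beyond the call rule, 1 of 6 genes (ALDH1A2) did not overlap the controls on day 4 at 6.7 Gy (11.8% of all tested probes, in either direction) and 2 of 6 (ALDH1A2 and RARB) at 7.4 Gy (15.7%). On day 7 it was 1 of 6 at each dose (ALDH1A1 and ALDH1A2, against 7.98% and 7.96%), and on day 12 2 of 6 at 6.7 Gy (ALDH1A2 and RARB, against 22.8%) and 1 of 6 at 7.4 Gy (ALDH1A2, against 17.8%). Between doses, 0 of 6 was called on day 4 (0% of all tested probes), day 7 (0%) and day 12 (0.00277%), with 0, 0 and 1 at an unadjusted p under 0.05 and 2-fold, the 1 being RBP2.

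Between days at 6.7 Gy, ALDH1A1 was called higher on day 7 against day 4 (0.244% of all tested probes called higher) and on day 12 against day 4 (1.81%). ALDH1A2 met the call rule in the lower direction in the same comparisons (0.111% and 0.786% of all tested probes called lower), but these use the day 4 values that chose it, so nothing is read from that. At 7.4 Gy, 0 of 6 was called on day 7 against day 4 (0.942% of all tested probes in either direction) and on day 12 against day 4 (1.8%), with 0 and 1 at an unadjusted p under 0.05 and 2-fold. In these 4 comparisons between days the median of all tested probes moved by 0.01 to 0.12 on the log2 scale.

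Genes of the pathway upstream of retinoic acid lay on both sides of the controls, and none was called against them. None of the 9 tested genes of vitamin A uptake and storage was called in any comparison with controls, where 0.0423% to 2.68% of all genes were called, and their median differences ran from -0.21 to -0.02, against -0.07 to 0.05 for the medians of all 14195 genes tested. The first of that list, the fatty acid and carotenoid transporter CD36, differed by 0.46 (adjusted p = 0.33) and 0.49 (adjusted p = 0.31) on day 4. BCO2, which cleaves carotenoids, differed by -0.83 and -0.78 on day 4 (adjusted p = 0.34 and 0.39). At an unadjusted p under 0.05 and 2-fold, limma gave 2 of 9 on day 4 (3.27% of all genes) and 1 on day 7 (1.44%) at 6.7 Gy and 0 in the other 4 groups (1.71% to 4.51%). Those of day 4 went opposite ways, RBP5 higher and RBP7, another retinol-binding protein, lower (adjusted p = 0.12). RBP7 measured -6.47, -5.67, -6.38 and -6.47 in controls and was not well above background in any of the 4 animals of day 4 at 6.7 Gy. The retinol-binding protein RBP5 differed by 1.29 on day 4 at 6.7 Gy (adjusted p = 0.064) and by 0.31 at 7.4 Gy (adjusted p = 0.66). On day 7 it differed by 1.21 (adjusted p = 0.22) and -0.03 (adjusted p = 0.98), and the dose differences of -0.98 and -1.24 on these days did not pass the test (adjusted p = 0.88 and 0.99). The esterifying enzymes LRAT and DGAT1 differed by -0.02 and -0.13 on day 4 after 6.7 Gy and by 0.09 and 0.02 after 7.4 Gy.

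None of the 15 tested retinol and retinaldehyde oxidoreductases was called against controls either (0.0423% to 2.68% of all genes), with medians of -0.25 to 0.04. At an unadjusted p under 0.05 and 2-fold, limma gave 1 of 15 on day 4 at each dose (3.27% and 4.51% of all genes) and on day 12 at 6.7 Gy (1.71%) and 0 in the other 3 groups (1.44% to 2.32%). The retinol dehydrogenases RDH5, RDH10 and RDH11 differed from controls by -0.29 to 0.12 on day 4. RDH13, an enzyme of the same family, differed by 1.23 (adjusted p = 0.062) and 0.88 (adjusted p = 0.13) on day 4 at 6.7 and 7.4 Gy. The alcohol dehydrogenase ADH1A was lower on day 4 at 7.4 Gy, at -0.86 (adjusted p = 0.018, under 2-fold), met the call rule there with the mean of its probes (-1.24, adjusted p = 0.036), and differed by -0.20 (adjusted p = 0.56) after 6.7 Gy. DHRS4 and RDH16, dehydrogenases that act on retinoids, differed by -1.07 (adjusted p = 0.092) and -1.40 (adjusted p = 0.30) on day 4 at 7.4 Gy, where animals overlapped the controls.

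Of the genes that clear or carry retinoic acid, CYP26A1 and FABP5 could be tested and 0 of 2 was called against controls (0.0423% to 2.68% of all genes), nor did either pass an unadjusted p under 0.05 and 2-fold there. CYP26A1, the enzyme that degrades retinoic acid and is itself induced by it, differed from controls by -0.31 to 0.21 over the 6 groups (adjusted p of 0.40 to 1). None of the 6 tested receptors and corepressors was called in any comparison (0% to 2.68% of all genes), nor at an unadjusted p under 0.05 and 2-fold, with medians of -0.24 to 0.20 against controls. RARA, a retinoic acid receptor, and RXRB, a receptor that pairs with it, lay within 0.38 of the controls in every group, and RARG differed by -0.59 to 0.32.

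Between days at the same dose, 4 genes of these lists were called, against 0.458% (6.7 Gy) and 1.06% (7.4 Gy) of all genes called in either direction on day 7 against day 4 and 2.66% and 2.09% on day 12 against day 4. ADH1A measured 1.05, 1.56, 0.98 and 1.32 on day 4 at 7.4 Gy, 2.42, 2.05, 2.61 and 2.39 on day 7 and 2.39 and 2.49 on day 12. It was higher than on day 4, with no overlap, on day 7 (1.14, adjusted p = 0.0058) and on day 12 (1.21, adjusted p = 0.013), while at 6.7 Gy the differences were 0.67 (adjusted p = 0.10) and 0.54 (adjusted p = 0.17). The second ADH1A probe gave 1.23 (adjusted p = 0.25) and 1.57 (adjusted p = 0.21) at 7.4 Gy with overlap. The day 7 call was lost on slides 1 to 4 alone (adjusted p = 0.15) and with the mean of the probes (adjusted p = 0.057), and the day 12 call with that mean (adjusted p = 0.068), in a fit of the compared groups alone (adjusted p = 0.056) and without either day 12 animal (adjusted p = 0.088 and 0.11).

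FABP5 measured 2.37, 1.97, 2.43 and 3 on day 4 at 6.7 Gy and 1.29 and 1.38 on day 12, and it fell by 1.1 on the log2 scale between those days (adjusted p = 0.017). At 7.4 Gy it measured 1.55 and 1.68 on day 12, below every day 4 animal, and fell by 1 (adjusted p = 0.027). Its second probe gave -1.09 (adjusted p = 0.027) and -1.03 (adjusted p = 0.043). The 6.7-Gy call was lost under 2 of 11 alternative settings and without day 4 replicate 4 or either day 12 animal, and the 7.4-Gy call under 3 of 10 and without day 4 replicate 1 or 3 or either day 12 animal, with differences of -1.38 to -0.91 and -1.13 to -0.82.

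The other 2 calls, both on day 12 against day 4 at 6.7 Gy, held under fewer settings. RBP5 measured -1, -1.26, -0.74 and -2.03 on day 4 and -2.6 and -3.15 on day 12, a difference of -1.62 (adjusted p = 0.04) that was lost under 5 of 11 settings and on leaving out any compared animal but day 4 replicate 4. SDR16C5, a dehydrogenase that oxidises retinol, measured -4.46, -5.21, -5.44 and -5.4 on day 4 and -3.63 and -3.69 on day 12. Its difference of 1.47 (adjusted p = 0.048) was 0.69 with normexp background correction (adjusted p = 0.06), and the call was lost under 7 of 11 settings and on leaving out any compared animal but day 4 replicate 1, and its second probe gave 1.34 (adjusted p = 0.18).

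Among the 10 tested retinoic acid targets, none was called higher in any group, and 1, 1, 2, 3, 2 and 1 were called lower on days 4, 7 and 12 (6.7 Gy before 7.4 Gy on each day). Over all genes, 1.13%, 2.68%, 0.338%, 0.719%, 0.155% and 0.0423% were called in either direction in the same 6 comparisons. The list's median differences were -0.36, -0.31, -0.31, -0.39, -0.24 and -0.52. The genes called were CCR9, ITGA4 and GPRC5A.

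CCR9, the chemokine receptor that directs T cells to the small intestine, was lower in every irradiated group. The controls measured -0.93, -1.80, -1.63 and -0.83. On day 4 it measured -3.36, -3.07, -2.38 and -3.08 at 6.7 Gy and -3.21, -3.12, -3.03 and -2.54 at 7.4 Gy, all below every control. On day 7 the values were -3.59, -3.28, -3.12 and -3.22 (6.7 Gy) and -4.14, -4.10, -3.51 and -3.05 (7.4 Gy), and on day 12 -3.05 and -3.51 (6.7 Gy) and -3.44 and -3.30 (7.4 Gy). No irradiated animal reached the control range on any of the 3 days. On day 4 CCR9 fell by 1.67 (adjusted p = 0.0022) and 1.68 (adjusted p = 0.0012) on the log2 scale. On day 7 it fell by 2 (adjusted p = 0.0014) and 2.40 (SE 0.26, adjusted p = 9.1e-05), and on day 12 by 1.98 (adjusted p = 0.024) and 2.07 (adjusted p = 0.029). The methods' test ended all 6 CCR9 calls after adjustment (lowest adjusted p = 0.068). A fit of the compared groups alone ended those of 6.7 Gy on day 4 (adjusted p = 0.11) and of day 12 (0.26 and 0.23), and leaving out control replicate 4 ended both day 12 calls (0.066 and 0.064). These were also lost without either day 12 animal and with slide as a block, that of 6.7 Gy without control replicate 1, and the day 4 call at 6.7 Gy on slides 1 to 4 alone (-1.43, adjusted p = 0.059).

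ITGA4, the alpha 4 subunit of the gut-homing integrin, was also lower. The controls lay between -1.55 and -0.85 and the irradiated animals between -3.41 and -1.72, so that no irradiated animal overlapped them. It fell by 1.25 (adjusted p = 0.011) and 1.48 (adjusted p = 0.0019) on day 7 at 6.7 and 7.4 Gy and by 1.41 (adjusted p = 0.04) on day 12 at 6.7 Gy. The differences of day 4 were -0.78 (adjusted p = 0.061) and -0.76 (adjusted p = 0.044, under 2-fold) and that of day 12 at 7.4 Gy was -1.29 (adjusted p = 0.081), which met the call rule with the mean of its probes (-1.25, adjusted p = 0.048). The second ITGA4 probe gave -1.24 and -1.38 on day 7. The day 12 call was lost under 5 alternatives (adjusted p of 0.057 to 0.39) and without any 1 of the 6 animals compared, the day 7 call at 6.7 Gy with either control replicate 4 (adjusted p = 0.056) or replicate 3 of the 6.7-Gy day 7 group (adjusted p = 0.051) left out, and that at 7.4 Gy in a fit of the compared groups alone (adjusted p = 0.096). The methods' test ended both day 7 calls (adjusted p = 0.15 and 0.24).

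Most markers of T cells, B cells and dendritic cells were lower than in controls, as CCR9 and ITGA4 were. The T cell list was drawn up after the values of these genes were seen. At 6.7 Gy, 1 of 4 B cell markers was higher than in controls on each day, as was 1 of 4 at 7.4 Gy on day 12. Dendritic cell markers were higher for 1 of 7 on day 7 at 6.7 Gy, and for 2 and 1 of 7 on day 12 (6.7 Gy and 7.4 Gy). On day 12 at 6.7 Gy, 1 of 8 T cell markers was higher. All 8 tested T cell markers (CD3D, CD3E, CD3G, CD2, CD5, CD8A, CD27 and LCK) were lower than in controls in the groups of days 4 and 7, and none was called in any of the 6 groups (0.0423% to 2.68% of all genes). Their medians were -0.50 and -0.24 on day 4, -0.77 and -0.85 on day 7 and -0.67 and -0.34 on day 12. Their summed signal was 3.70 to 4.28 in controls, 3.11 to 4.04 and 3.39 to 4.06 on day 4, 3.04 to 3.26 and 2.89 to 3.20 on day 7, and 3.22 to 3.31 and 3.40 to 3.61 on day 12. On day 7 at 7.4 Gy, CD3D (-0.92, adjusted p = 0.038), CD3G (-0.95, adjusted p = 0.045) and CD2 (-0.86, adjusted p = 0.028) fell by less than 2-fold. The B cell medians were -1.54 and -1.34 on day 4, -1.08 and -1.51 on day 7 and -1.19 and -1.20 on day 12, with 2 of 4 called lower on day 7 at 7.4 Gy (CD79A and CD79B) and none in the other groups of days 7 and 12. The dendritic cell medians were -0.52 and -0.86, -0.64 and -2.26, and -1.53 and -0.72, with 2 and 4 of 7 called lower on day 7 and 1 and 0 on day 12. Of all genes, 0.338% and 0.719% were called in either direction on day 7 (6.7 Gy and 7.4 Gy) and 0.155% and 0.0423% on day 12. Single markers of both lists were well above background on only 9 to 17 of 24 arrays (MS4A1, FLT3, CD1C and CLEC9A). The summed B cell signal was -0.03 to 1.57 in controls and -0.46 to 0.02 on day 7 at 7.4 Gy, and that of dendritic cells -0.24 to 0.24 and -1.19 to -0.92. The part of T cell, B cell or dendritic cell number in the CCR9 and ITGA4 values was not tested.

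GPRC5A, an orphan receptor first described as induced by retinoic acid, was called lower on day 7 after the higher dose. The controls measured 0.44, -1.32, -1.46 and -0.96, with 1 animal far above the other 3. On day 7 at 7.4 Gy it measured -3.68, -4.41, -2.74 and -3.71, below every control, and was 7.02-fold lower (log2 -2.81, SE 0.42, adjusted p = 0.0017). On day 4 the differences were -0.48 (adjusted p = 0.48) and -0.41 (adjusted p = 0.60), and on day 7 at 6.7 Gy -1.52 (adjusted p = 0.14). On day 12 it differed by -0.44 (adjusted p = 0.83) at 6.7 Gy and by -1.83 (adjusted p = 0.21) at 7.4 Gy, with animals at -2.36 and -2.96. The animals of day 7 at 6.7 Gy and of day 12 at 7.4 Gy also all lay below every control, without passing the test. The call was lost on slides 1 to 4 alone (-2.40, adjusted p = 0.11), in a fit of the compared groups alone (adjusted p = 0.063) and by the methods' test (adjusted p = 0.22). It was also lower on day 7 than on day 4 at 7.4 Gy (-2.40, adjusted p = 0.0045), which was lost on slides 1 to 4 alone (-1.55, adjusted p = 0.32).

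Other targets on the list moved little or in both directions on day 4. RARRES1 differed by 0.51 (adjusted p = 0.33) and 0.54 (adjusted p = 0.30). RARRES2, which encodes the chemoattractant chemerin, was higher at 7.4 Gy (0.79, adjusted p = 0.031, under 2-fold). HOXA5, a patterning gene, was lower after the same dose (-0.72, adjusted p = 0.027, under 2-fold). TGM2, the tissue transglutaminase, differed by 0.25 (adjusted p = 0.59) and 0.65 (adjusted p = 0.15).

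**Figure D4:**
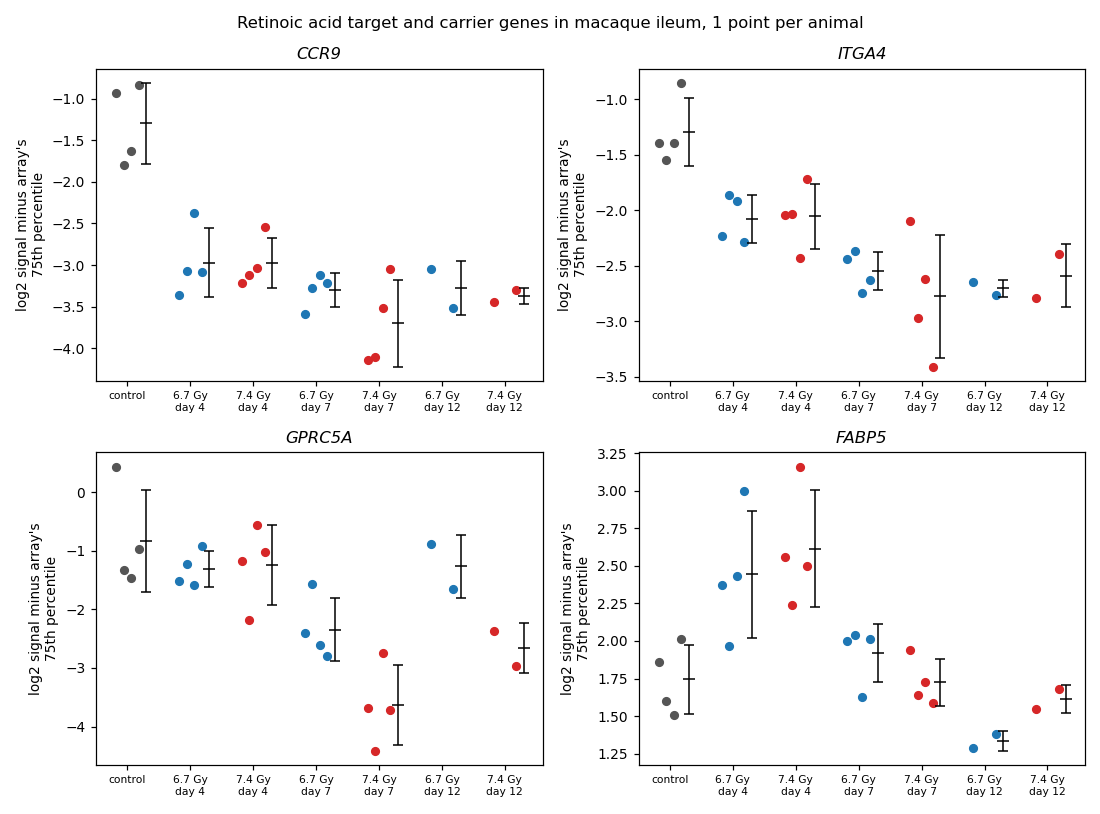
Level of the retinoic acid targets CCR9, ITGA4 and GPRC5A and of the carrier FABP5 in each animal (vertical axis: log2 signal minus the array's 75th percentile, a different range in each panel), by dose and day, with mean ± SD beside the points. The CCR9 controls lie between -1.80 and -0.83 and every irradiated animal lies at or below -2.38, while FABP5 is highest on day 4.

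Across the 24 arrays, the genes most like ALDH1A2 in their pattern included C7, PHLDA3, CH25H, ZMAT3, ADGRL2, GDF15, WLS, LYVE1 and TCEAL4, the first 9 in order, with Pearson correlations of 0.88 to 0.93 among 14194 other genes. The arrays fall into 7 groups, and arrays of a group share its mean. LYVE1 is also on the lymphatic list above. With the group means removed, the correlation was 0.70 for C7, a component of the complement attack complex, 0.68 for TCEAL4, 0.62 for the adhesion receptor ADGRL2 and 0.61 for WLS, which carries Wnt proteins to the cell surface. It was 0.52 for LYVE1, 0.47 for PHLDA3 and 0.42 for CH25H. For ZMAT3 and GDF15 it was 0.12 and 0.13, so these followed ALDH1A2 between groups and hardly within them.

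On day 4 the differences of these genes from controls ranged from 0.84 (TCEAL4, 6.7 Gy) to 4.23 (GDF15, 7.4 Gy). GDF15, a stress-induced secreted factor, remained 1.15 to 2.30 above the controls on days 7 and 12, whereas ADGRL2 stood at 0.00 to 0.38 there. C7 differed by 1.26 and 1.51 on day 4 and by 0.39 to 0.73 later. Among the retinoid genes themselves the correlation with ALDH1A2 was 0.61 for RARB (0.28 with group means removed), 0.48 for ALDH1A3 (-0.34), 0.05 for RBP2 (-0.17), -0.49 for CRABP1 (-0.40) and -0.64 for ALDH1A1 (-0.21).

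**Figure D5:**
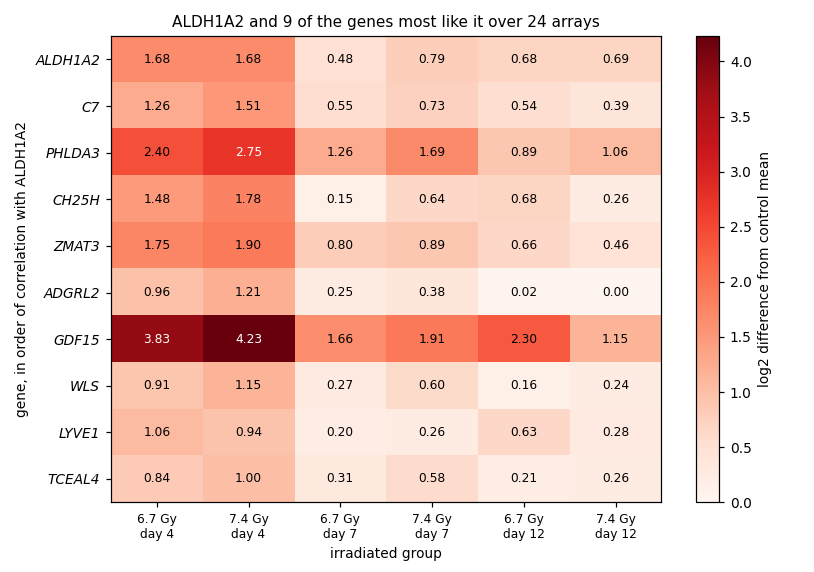
Log2 difference from the control mean (colour and printed value) of ALDH1A2 and the 9 genes most correlated with it over 24 arrays (rows, in order of correlation), in the 6 irradiated groups (columns). Each gene is highest on day 4 at one dose or the other, and GDF15 reaches 4.23 there.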

How the data were processed

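Agilent rhesus macaque arrays of 1 colour were scanned and read with Agilent Feature Extraction, and the design file names build rheMac2 (per the file headers). The deposited scanner files give intensity per spot, background-subtracted by that software. The authors' deposited normalized table holds log2 values, scaled to the 75th percentile of each array and centred on each probe's median over arrays. It supplied the gene symbols here and one alternative set of values. No depth applies: precision is limited by 4 or 2 animals per group.

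The log2 intensities of a probe's spots (outlier spots left out) were averaged and expressed relative to the array's 75th percentile. Testing was limited to probes that stood well above background on all arrays of 1 group or more, which left 36110 of 43603 probes, among them 8 of the 9 retinoid probes. No spot was saturated and no 2 arrays were identical. limma 3.58.1 in R 4.3.3 fitted 7 group means to all 24 arrays, with Benjamini-Hochberg adjustment within each of 13 comparisons (6 with controls, 3 between doses, 4 between days), checked on simulated data. Gene-level values use a gene's brightest tested probe, and summed list signals are log2 of the summed linear signals. Symbols were updated through RefSeq names (assembly T2T-MMU8v2.0), which named 3519 probes.

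The retinoid genes, the pathway and marker lists and the rules for named genes were chosen with earlier results of these data known. Named were the retinoid genes, pathway genes called against controls, the first tested genes of lists, and the 10 genes most correlated with ALDH1A2, 1 of which is not reported here. RBP5, RBP7, RDH13, RDH16, DHRS4, ADH1A, SDR16C5, RARRES2, HOXA5, TGM2 and the named cell type markers were chosen after their values were seen. Pathway lists covered uptake and storage, oxidoreductases, clearance and carriers, receptors and targets. Marker lists covered mature enterocytes, mesothelium, fibroblasts, dendritic cells, lymphatic endothelium, T cells and the other lists given with the day 4 counts. The label text on treatment gives another last day than the titles and day field, and day 12 was used. Alternatives covered background correction, normalization, filters, probe choice, moderation, samples in the fit, slide, position, replicate number, single arrays left out and the methods' t-test. The scanner files hold no probe sequences.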

Additional observations from a re-analysis of the deposited data

Results flagged for a closer look

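Of the 40 sets of 4 values examined, each of 1 gene in 1 group, 3 held 1 animal far from the other 3, where chance gives about 1 in 20. The sets of different genes share the same animals, and RBP4 and CRABP2, outside the retinoid set, were among the genes. Control replicate 4 was low for ALDH1A1, at 5.13 against 5.91 to 6.06, and high for RARB, at -4.04 against -4.52 in the other 3. For CRABP1, replicate 2 of the 6.7-Gy day 7 group measured 1.32 against 1.07 to 1.12. Without control replicate 4 the RARB difference of the 7.4-Gy day 4 group was 1.08 (limma, adjusted p = 0.022), past the 2-fold limit.

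ALDH1A1 differed between days of the same dose, by 1.32 on day 7 and by 1.11 on day 12 against day 4 after 6.7-Gy TBI.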

How the results depend on the processing

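The ALDH1A2 differences from controls, values with no test, kept their direction and moved by less than the spread between replicates under all 122 alternatives. Of 243 alternatives for the counts of calls, 215 stayed within 1.5 times, and of 763 for single tested genes 659 kept direction and call. The ALDH1A2 differences from controls ranged from 1.52 to 1.79 and 1.52 to 1.78 on day 4 (6.7 and 7.4 Gy), 0.31 to 0.59 and 0.62 to 1.05 on day 7, and 0.52 to 0.79 and 0.46 to 0.93 on day 12. Its dose difference of 0.00 on day 4 became 0.01 with normexp background correction and 0.02 with quantile normalization, and -0.09 to 0.08 with single arrays left out. That of day 12 became -0.23 to 0.25 with single arrays left out.

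Counts of the 6 retinoid genes tested include ALDH1A2, from whose calls nothing is read. The 1 called at 6.7 Gy on day 4 became 0 under the methods' t-test. The 1 called at 7.4 Gy became 2, RARB joining, on slides 1 to 4 alone, and 1 to 2 with single arrays left out (2 without control replicate 4 or 7.4-Gy day 4 replicate 3). For 6.7 Gy, day 12 against day 4, the 2 called became 0 on slides 1 to 4 alone, in a fit of the compared groups alone, with normexp and with slide as a block, 1 without a filter on dim probes and with the replicate block, and 0 to 2 with single arrays left out. For day 7 against day 4 the 2 called became 0 on slides 1 to 4 alone and in a fit of the compared groups alone, 1 with quantile normalization and with slide as a block, and 1 to 2 with single arrays left out. For 7.4 Gy, the 0 called on day 12 against day 4 became 1 with quantile normalization and 0 to 1 with single arrays left out, and on day 7 against day 4 it became 0 to 1. Apart from fewer arrays or probes in some of these fits, the cause was not tested. Without adjustment the methods' t-test gave 1 and 1 of 6 genes on day 4, and after it 0 and 1.

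Replicate numbers did not pair the animals: deviations from group means correlated at -0.26 to 0.36 between arrays of the same number (median 0.03) and at -0.36 to 0.27 between others (median -0.01). Besides the count above, the replicate block ended the ITGA4 call of 6.7 Gy on day 12 (adjusted p = 0.083) and, on day 12 against day 4, those of RBP5 (0.059) and SDR16C5 (0.081) at 6.7 Gy and of FABP5 (0.06) at 7.4 Gy, and changed no other call. Normexp was run on median spot signals and slides 1 to 4 were analysed alone after seeing the data. Differences within a slide for the 7.4-Gy day 12 group, and position as a covariate against controls for days 7 and 12, could not be estimated.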
